A study of Mus musculus with 4 samples.

Results

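The transcriptional response to etoposide was described in the GFP control line of a pair of mouse embryonic fibroblast (MEF) lines without BAX and BAK. Its members are 2 of the 4 arrays of the series, chosen by their sample titles: GFP cells mock-treated for 6 h and GFP cells treated with etoposide for 6 h. Each condition was measured on 1 array, so every difference is given by its size, with no test and no error.

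All cells came from C57BL/6 embryos at E13.5, were deleted for both Bax and Bak1, were transformed with SV40 and were transduced with a retrovirus, which expressed GFP in the cells described here and p63 in the comparison line. The mock-treated and etoposide-treated GFP cells therefore differed in the drug alone, as far as the labels say. The treatment protocol gives a dose of 10 µg/mL, whereas the sample labels give 10 micrograms per microlitre. Whether a line is 1 clone or a pool of transduced cells, and from how many embryos it came, the sources used here do not say.

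Etoposide traps topoisomerase II on cleaved DNA and so leaves double-strand breaks. In many cells such breaks stabilise p53, a transcription factor that induces its own inhibitor Mdm2 and genes of arrest, death and metabolism, and that lowers the expression of G2 and mitotic genes through the DREAM complex. BAX and BAK carry out the mitochondrial step of apoptosis, which the cells used here cannot take. SV40 cells also carry the viral large T antigen, a protein that binds both p53 and RB.

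Values are RMA signals on the log2 scale, where a difference of 1 is 2-fold. Brightness depends on the probe set, so levels are compared between arrays and not between genes. Of 19938 named genes, 10698 reached 5.87 (log2), the median of all named readings, on at least 1 of the 4 arrays and were kept, and 358 of these were below that filter on both GFP arrays. The median kept gene read 7.69 in mock-treated and 7.60 in etoposide-treated GFP cells. Trp63 read 4.87 and 5.59 in GFP cells, both below the filter, against 8.75 and 9.29 in p63 cells, as the labels require. Bak1 was below the filter at 5.43 and 5.41, but the sources used here do not say whether its probes lie inside the deletion, so that reading checks nothing. Of 12 fibroblast markers 7 were kept, among them Col1a1, Col1a2, Vim and Fn1, whereas Pdgfra, Thy1, Lum, Dcn and Fap were below the filter on both GFP arrays.

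After 6 h of etoposide, 377 genes were higher by at least 1 (log2) in GFP cells, which is 3.52% of the genes kept, and 227 were lower, which is 2.12%. Genes that p53 induces were prominent among the first, and genes of mitosis, interferon-induced antiviral genes and histone genes among the second. Thus 44 of the 377 higher genes belonged to the p53 lists and 3 to the mitotic lists. Of the 227 lower genes, 30 were mitotic, 27 were interferon-induced, 7 were replication-dependent histones and 0 were in the p53 lists. For scale, the interferon lists held 67 of the 10698 kept genes, and kept sizes of the other lists are given below. The lists were chosen with earlier results of these data known, so such membership counts are partly built in. In all, 82 of the 377 and 87 of the 227 belonged to a list examined here, and the rest belonged to none. Higher genes made up 62.4% of the calls, a share that depended on scaling: it was 74.0% (469 higher, 165 lower) with the arrays centred on their medians and 69.0% (439 and 197) after cyclic loess. Counts by list are given for the values as deposited, and some members close to the threshold changed call under both of these scalings. The median difference over all kept genes was -0.08.

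Most differences were moderate. Of the higher genes 107 reached 3-fold and 42 reached 4-fold, and of the lower genes 45 and 17 did. The median size was 1.32 for higher and 1.26 for lower genes. A reading below the filter lies near background: 122 of the higher genes had such a reading on a GFP array, and 56 of the lower genes did. With those readings set to the filter value, 289 genes (2.7%) were still higher and 186 (1.74%) still lower by at least 1, and folds of such genes were computed in this way and are printed as lower bounds. In 12 higher genes with further probe sets above the filter, all 13 of those probe sets were also higher and 11 reached 2-fold. In 16 such lower genes, all 21 were lower and 12 reached 2-fold.

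**Figure D1:**
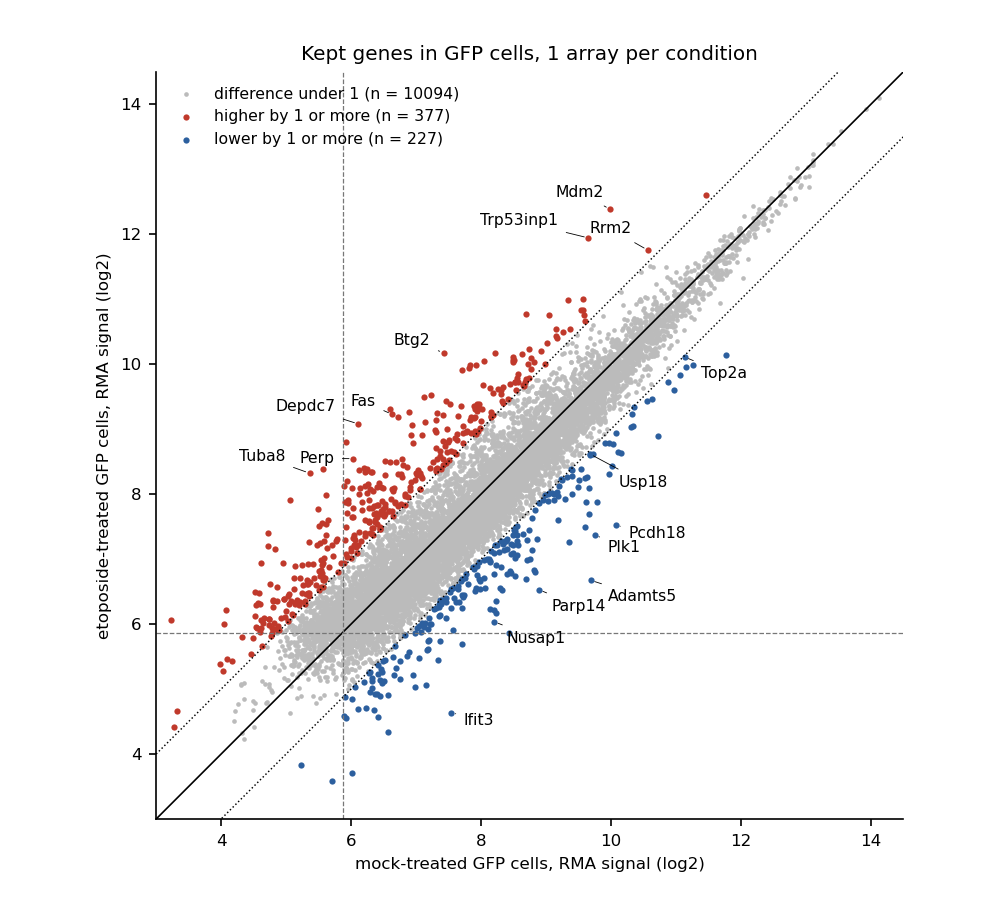
Each point is a kept gene, with its RMA signal (log2) in mock-treated GFP cells on the horizontal and in etoposide-treated GFP cells on the vertical axis, from 1 array each. Red points (377) were higher and blue points (227) lower by at least 1, dotted lines mark that difference, and dashed lines mark the filter of 5.87. Mdm2 and Trp53inp1 stand above the band of bright genes along the diagonal, and many red points lie left of the filter, where the mock reading was near background.

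The highest difference in GFP cells was that of Depdc7, a DEP-domain protein gene, which read 6.11 after mock treatment and 9.08 after etoposide, a 7.83-fold difference. Rgcc, a regulator of cell cycle progression, read 5.92 and 8.80, or 7.33-fold higher. Tuba8, an alpha-tubulin, went from 5.36 to 8.32, and its mock reading was below the filter, so it was at least 5.48-fold higher. Nipal4, Mab21l3 and Ces2g also started below the filter. Nipal4, a magnesium transporter, was at least 5.74-fold higher (5.57 and 8.39), and Mab21l3 at least 4.12-fold (5.06 and 7.91). Ces2g, a carboxylesterase, was at least 2.88-fold higher (4.72 and 7.40). Apobec1, the cytidine deaminase that edits Apob mRNA, read 6.90 and 9.26 and was 5.15-fold higher. Prrg4, Tec and Tex15 were the other genes of the 15 highest that are in no list described below, with differences of 2.37, 2.37 and 2.48. The mock readings of Tec and Tex15 were below the filter.

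Among the 17 kept genes of p53 feedback and arrest (of 20 listed), 10 were higher, 0 were lower and the median difference was 1.32, against -0.08 over all kept genes. Mdm2, the ubiquitin ligase that degrades p53, read 9.99 after mock treatment and 12.39 after etoposide, 5.28-fold higher. Btg2, an antiproliferative gene, read 7.42 and 10.18, or 6.74-fold higher. Trp53inp1, a cofactor of p53 that promotes autophagy and death, read 9.65 and 11.95, a 4.90-fold difference. These genes were above the filter on both arrays, so their folds do not rest on readings near background. Zfp365, Zmat3 and Phlda3, an inhibitor of AKT, differed by 1.83, 1.53 and 1.52. Plk2, Plk3 and Gadd45a, which are stress-induced too, differed by 0.21, 0.23 and 0.39 and did not reach the threshold.

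Death genes of the p53 program had the highest list median, 1.64 over 15 kept members of 18, with 11 higher and 0 lower. Fas, a death receptor, read 6.64 and 9.23, or 6.03-fold higher. Pmaip1, the gene of the BH3-only protein NOXA, read 7.83 and 9.98, or 4.45-fold higher. Eda2r, a receptor of the TNF receptor family, read 7.93 and 9.99, or 4.18-fold higher. All of these act at the cell surface or upstream of BAX and BAK. Apaf1, the scaffold of the apoptosome, acts downstream of them and read 9.05 and 10.76, a difference of 1.71. Perp, a p53 target that is also a desmosome component, read 6.03 and 8.55, or 5.71-fold higher. Bid, a BH3-only gene, differed by -0.69, and Bbc3, the gene of PUMA, was below the filter on both GFP arrays. In the wider BCL-2 family list, 1 of 15 kept genes was higher (Pmaip1) and 1 was lower, Bnip3, at 7.07 and 5.88. A further probe set of Bnip3 read 6.50 and 5.89, a difference of -0.60 that did not reach the threshold.

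**Figure D2:**
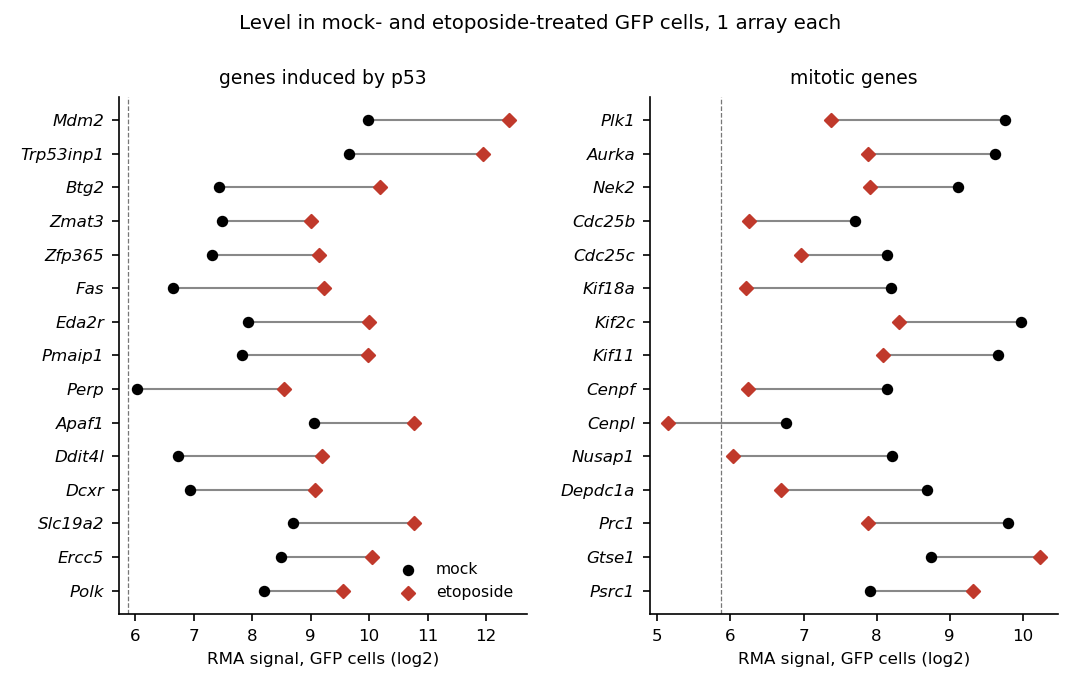
RMA signals (log2) in GFP cells are plotted for 15 genes of the p53 lists on the left and 15 mitotic genes on the right, with black circles for mock, red diamonds for etoposide and 1 array each. The dashed line is the filter of 5.87. The diamonds lie right of the circles for all 15 p53-list genes shown and left of them for 13 mitotic genes, whereas Gtse1 and Psrc1 have theirs on the right. Over the whole lists, 14 of 81 kept p53-list genes were below 0 and 17 of 120 kept mitotic genes above 0.

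In metabolism and autophagy, 12 of 20 kept p53 targets were higher and 0 were lower, with a median of 1.28. Members that restrain mTORC1, the growth-promoting kinase complex, were among them. Ddit4l read 6.72 and 9.19, or 5.52-fold higher, its relative Ddit4 read 7.53 and 9.39, or 3.64-fold higher, and Sesn2 read 7.85 and 9.18, or 2.53-fold higher. The enzymes and carriers included Dcxr, a reductase of the xylulose pathway, with 6.94 and 9.07, Slc19a2, a thiamine transporter, with 8.69 and 10.77, Lpin1, a phosphatidate phosphatase, with 6.31 and 8.34, and Aldh4a1, of proline breakdown, with 6.26 and 8.16. Each of these was between 3.74-fold and 4.39-fold higher. Tigar, which lowers glycolytic flux, differed by -0.29 and was among the 8 members that did not reach the threshold.

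Signalling and membrane targets gave 11 higher and 0 lower of 20, with a median of 1.09. Pltp, the phospholipid transfer protein, read 7.71 and 9.91, or 4.59-fold higher. Crip2, a LIM-domain protein, read 8.05 and 10.05, and Cd80, a T-cell costimulatory ligand, read 6.52 and 8.51. Notch1 read 7.31 and 8.96, and Jag2, a Notch ligand, read 5.65 and 7.61, at least 3.33-fold higher. In the Notch list 4 of 20 kept genes were higher, the other two being Notch3, with 6.23 and 8.36, and Nrarp, with a mock reading below the filter, but the list median was -0.06.

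Of the repair genes listed as p53 targets, 2 of 12 kept were higher and 0 were lower, with a median of 0.11, the lowest of the p53 lists. Ercc5, the XPG endonuclease of nucleotide excision repair, read 8.49 and 10.04, and Polk, a translesion polymerase, read 8.19 and 9.56. Ddb2, Xpc and Polh, also on this list, differed by -0.22, -0.11 and -0.54. Whether each listed gene is induced by p53 in mouse cells was not examined. Genes of double-strand break and crosslink repair were mostly near their mock level, with 1 of 43 kept genes higher, 0 lower and a median of -0.10. The higher gene, Msh6, belongs to mismatch repair and read 8.93 and 10.21. Whether these lists differ from the other p53 lists was not tested.

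The following stretches of promoter sequence show where letters matching the p53 decamer, the element that occurs in pairs at p53 binding sites, lay upstream of the start site. They belong to the 4 higher p53-list genes with the largest differences that had such a match before the start, in RefSeq windows of build GRCm38.p6, 5′ to 3′ on the strand of the gene, with the match in capitals.
Ddit4l, chr3:137623537-137623616, plus strand: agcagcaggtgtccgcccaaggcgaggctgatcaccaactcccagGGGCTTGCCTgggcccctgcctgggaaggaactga
Mdm2, chr10:117710910-117710989, minus strand: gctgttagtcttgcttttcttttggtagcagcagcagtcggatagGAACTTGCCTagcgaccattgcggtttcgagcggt
Ppm1d, chr11:85311077-85311156, plus strand: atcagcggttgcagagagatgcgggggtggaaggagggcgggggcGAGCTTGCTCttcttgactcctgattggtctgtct
Polk, chr13:96519384-96519437, minus strand: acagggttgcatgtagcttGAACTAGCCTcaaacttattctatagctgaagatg
The motif was searched on both strands from 250 bases before to 50 bases after each annotated start. It occurred for 8.49% of the 8613 kept genes with a window, for 14.7% of 300 higher genes and for 6.47% of 170 lower genes. Within the p53 lists it was found for 8 of 39 higher genes and for 7 of 31 genes that were neither higher nor lower, shares of 20.5% and 22.6%. A match is a description of these letters and not a binding site, and p53 elements that lie outside the window, as in introns, were not searched.

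Among 120 kept mitotic genes, 30 were lower, 3 were higher and the median difference was -0.56. In bulk RNA, fewer cells in G2 and mitosis and less RNA per such cell cannot be told apart. Motor proteins of the spindle had the lowest median of the lists, -1.15, with 7 of 12 kept mitotic kinesins lower. Kif18a, which dampens chromosome movements, read 8.20 after mock treatment and 6.21 after etoposide, 3.96-fold lower. Kif2c, a microtubule depolymerase, read 9.98 and 8.31, and Kif11, the motor that separates spindle poles, read 9.66 and 8.09, or 3.18-fold and 2.97-fold lower. Kif18b, a relative of Kif18a, lay at the other side, with 8.68 and 9.68, a difference just under the threshold at 1.00 (log2) that passed it under both other scalings.

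Plk1, a kinase needed for mitotic entry and cytokinesis, had the lowest value of the mitotic lists, at 9.76 and 7.37, or 5.23-fold lower. Aurka, which matures the centrosomes, read 9.62 and 7.88, or 3.35-fold lower, and Nek2, another centrosomal kinase, read 9.12 and 7.91. In the kinase list 3 of 15 were lower, and Cdk1 and Aurkb differed by -0.65 and -0.20. The activators of CDK1, Cdc25b and Cdc25c, differed by -1.46 and -1.18, and Espl1, or separase, by -1.02. Cdc25b read 7.71 and 6.25. Foxm1 and Mybl2, transcription factors of this program, differed by -0.61 and 0.02.

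At the spindle and the cleavage furrow, 12 of 28 kept genes were lower, with a list median of -0.91. Nusap1, which bundles spindle microtubules, read 8.20 and 6.04, or 4.49-fold lower. Depdc1a read 8.69 and 6.69, or 4.02-fold lower, and Prc1, the organiser of the central spindle, read 9.79 and 7.88, or 3.77-fold lower. The same list held the 3 mitotic genes that were higher. Gtse1, which restrains p53, read 8.75 and 10.23, a difference of 1.49, Psrc1 read 7.91 and 9.32, or 2.65-fold higher, and Ckap2 was higher by 1.05. All 3 have been described as p53-induced, and Ckap2 is also a member of a p53 list here. Kinetochore and centromere genes lay nearer to their mock level, with 4 of 33 lower and a median of -0.36. They were led by Cenpf, at 8.14 and 6.23, and Cenpl, at 6.76 and 5.15, of which the latter ended below the filter and did not reach 2-fold with that reading raised.

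The cell cycle homology region (CHR), with the letters TTTGAA, is bound by the DREAM and MuvB complexes in many G2/M promoters. The stretches shown are those of the 4 lower mitotic genes with the largest differences that had a match before the start site, from the same RefSeq windows, with the motif in capitals on whichever strand it lay.
Depdc1a, chr3:159495353-159495432, plus strand: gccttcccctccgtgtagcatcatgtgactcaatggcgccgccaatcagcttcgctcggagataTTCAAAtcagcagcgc
Prc1, chr7:80294396-80294475, plus strand: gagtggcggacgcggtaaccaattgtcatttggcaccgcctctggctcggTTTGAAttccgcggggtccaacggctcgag
Kif2c, chr4:117178845-117178924, minus strand: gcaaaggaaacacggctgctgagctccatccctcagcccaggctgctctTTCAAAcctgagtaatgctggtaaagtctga
Cenpl, chr1:161070556-161070635, plus strand: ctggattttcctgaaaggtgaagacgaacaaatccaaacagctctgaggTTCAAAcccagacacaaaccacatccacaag
The letters occurred for 13.9% of the 8613 kept genes with a window, for 33.5% of 170 lower genes and for 11.3% of 300 higher genes. For the mitotic lists the share was 57.4% of 101 genes. It was 76.9% (20 of 26) among mitotic genes that were lower and 51.4% (37 of 72) among those that were neither lower nor higher. The CCAAT box, the letters CCAAT, which often accompanies a CHR, was found for 43.0% of kept genes, 56.5% of lower genes and 69.3% of mitotic genes. Genes have more than 1 window where RefSeq gives several starts, on average 1.27 per kept gene and 1.11 per mitotic gene.

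Genes of DNA replication had medians near 0. Of 25 kept genes of origins and helicase 1 was lower, Dbf4, the activator of the CDC7 kinase, at 9.04 and 7.89, and the median was 0.10. Of 34 genes of the fork and nucleotide supply 1 was higher, Rrm2, the small subunit of ribonucleotide reductase, at 10.57 and 11.76, and the median was 0.09. In the G1 list 2 of 23 were higher and 2 lower. Rb1, the retinoblastoma gene, read 7.29 and 8.99, or 3.26-fold higher, and Ccne2, cyclin E2, read 8.64 and 9.68. Cdkn1b, which encodes the CDK inhibitor p27, read 8.31 and 6.89, or 2.69-fold lower, and Cdk6, at 9.04 without the drug, was 2.06-fold lower, a call that was lost under both other scalings, at -0.94 and -0.90.

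Replication-dependent histone genes were lower as a group, with 7 of 22 kept genes lower, 0 higher, 21 of 22 below 0 and a median of -0.85. For scale, 2.12% of all kept genes were lower, and 4192 of 10324 kept protein-coding genes were above 0. H1f1 and H1f5, linker histones, read 10.34 and 9.04, and 11.27 and 9.99, or 2.45-fold and 2.42-fold lower. H2bc3 read 8.05 and 6.72, and H2ac4 read 7.61 and 6.34. H1f2, H2bc3, H2ac4 and H1f1 follow each other on chromosome 13 in the RefSeq order of the named genes. Genes without a named probe set of their own are skipped in that order. Histone genes of a class are nearly identical in coding sequence, so how the probe sets divide their signal is uncertain. Of 67 listed histone genes 30 were in the table.

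Drug target and drug handling genes differed in both directions. Top2a, the topoisomerase II isoform of dividing cells, read 11.14 and 10.11, or 2.03-fold lower, a call that was lost with the arrays centred on their medians (-0.93) and after cyclic loess (-0.94). Top2b, the isoform of all cells, read 9.70 and 9.40. Abcb1a and Abcb1b, the mouse genes of the P-glycoprotein that exports etoposide, read 6.33 and 8.05, and 9.26 and 10.50, or 3.30-fold and 2.36-fold higher. They are neighbours on chromosome 5 and close paralogs, so probes may be shared between them. Abcc1 and Abcg2, other exporters, differed by -0.08 and -0.24, Abcc3 was below the filter on both GFP arrays, and Tdp2, which removes trapped topoisomerase II from DNA ends, by 0.06.

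Early response genes were higher in part, and 3.52% of all kept genes were higher. The EGR, KLF, NR4A, IER and MYC list lay near that share, with 1 of 26 kept genes higher (3.85%). Its median was 0.22, and 10 of the 26 were below 0. In the AP-1 and ATF list 4 of 14 were higher, with a median of 0.75. Atf3, a stress-induced repressor, read 7.46 and 9.44, or 3.94-fold higher, Junb was 2.29-fold higher, at 7.70 after the drug, and Fos went from a mock reading below the filter, 5.12, to 6.72, a difference of 0.85 with that reading raised. ERK feedback genes and EGFR ligands gave 5 of 22 higher, with a median of 0.42. Dusp6, a phosphatase of ERK, read 7.89 and 9.36, or 2.77-fold higher, and Ereg, epiregulin, read 5.63 and 7.17, at least 2.47-fold higher. Lif, a cytokine of the interleukin 6 family, read 6.29 and 8.07, or 3.45-fold higher. NF-kB components gave 2 of 19 higher, Nfkbia, its inhibitor, at 8.68 and 9.73, and Map3k8 at 5.61 and 7.37. Chemokines, cytokines and adhesion genes gave 3 of 16 higher, among them Ccl2 at 8.42 and 9.46 and Icam1 at 5.72 and 7.05.

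Cd14, a monocyte marker and lipopolysaccharide co-receptor, was at least 2.66-fold higher, at 5.58 and 7.28. Of the 12 macrophage and haematopoietic markers it was the only gene that reached 2-fold, 10 were below the filter on both GFP arrays, and the linear signals of these 10 summed to 182 without and 211 with the drug. Ptprc, Adgre1, Csf1r and Itgam were among those 10.

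Interferon-induced genes were lower in GFP cells, with 27 of 67 kept genes lower, 1 higher and a median of -0.75. Of the 27, 22 remained lower by at least 1 where dim readings were set to the filter. Ifit1, which binds viral RNA, read 10.11 after mock treatment and 8.65 after etoposide, 2.75-fold lower. Oasl2, of the oligoadenylate synthetase family, read 9.67 and 7.70, or 3.92-fold lower, and Rtp4 read 10.01 and 8.43, or 2.99-fold lower. Parp14, an ADP-ribosyltransferase, read 8.90 and 6.53, or 5.16-fold lower, and Ifit3 read 7.55 and 4.64, at least 3.19-fold lower.

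The transducers of the interferon signal were among them. Stat2 and Irf9, which form the ISGF3 complex, read 8.33 and 6.53, and 9.30 and 7.92, or 3.49-fold and 2.59-fold lower. Ifnar1 and Ifnar2, the receptor subunits, differed by -0.37 and -0.42 and did not reach the threshold, and Jak1 and Tyk2 differed by -0.27 and 0.18. Ddx58 and Ifih1, the cytosolic RNA sensors RIG-I and MDA5, read 10.16 and 8.63, and 8.83 and 7.75. The call of Ifih1 was lost under both other scalings, at -0.98 and -0.94, and so was that of Usp18, a brake on the receptor, which read 9.67 and 8.62. Irgm1 and Gbp7, interferon-induced GTPases, differed by -1.14 and -1.52. The 1 higher gene was Socs3, a feedback inhibitor of cytokine receptors, at 6.37 and 7.58, which was 0.67 on the median of its probe sets. Genes of MHC class I antigen processing, also interferon-responsive, gave 1 of 15 higher, Tap1, at 8.01 and 9.12, 0 lower and a median of 0.06.

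**Figure D3:**
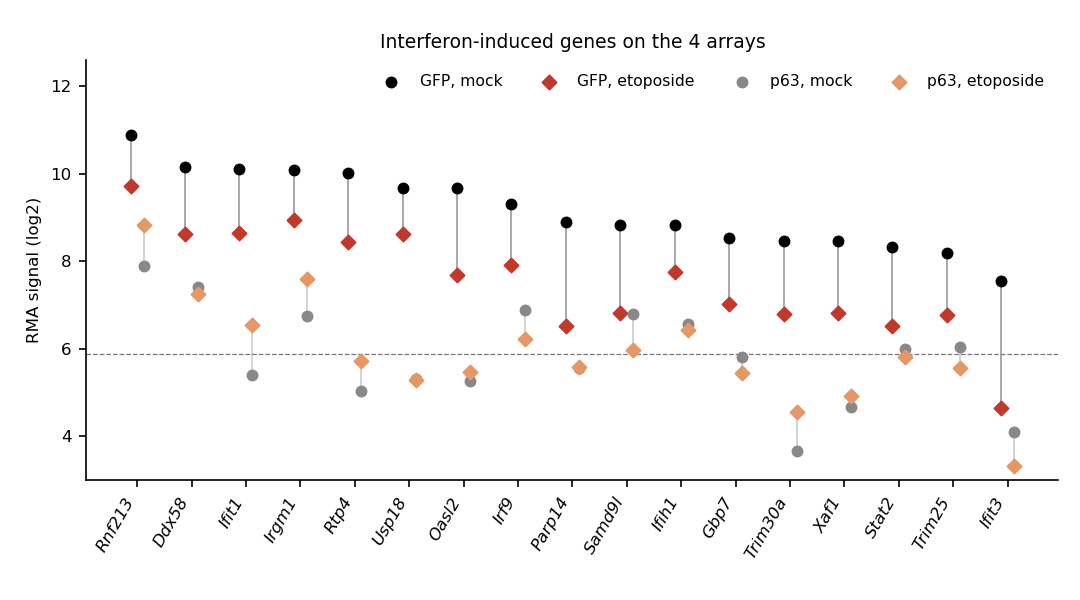
RMA signals (log2) of 17 interferon-induced genes on the 4 arrays are plotted, with GFP cells to the left (black circles for mock, red diamonds for etoposide) and p63 cells to the right of each gene position (grey circles for mock, orange diamonds for etoposide); the dashed line is the filter of 5.87. The 17 shown do not stand for the whole lists, in which 11 of 67 kept genes were above 0 in GFP cells. All 17 read lower after etoposide in GFP cells, and most p63 readings lay lower still. For genes that are lower in GFP cells a high mock GFP reading is partly built in. The p63 symbols of Parp14 coincide at 5.57 and 5.58.

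Letters of the interferon-stimulated response element (ISRE), searched on both strands as GAAA, any 2 bases and GAAA again, lay upstream of the following lower interferon genes, the 4 with the largest differences that had a match before the start, again from RefSeq windows of GRCm38.p6 with the match in capitals.
Ifit3, chr19:34583362-34583441, plus strand: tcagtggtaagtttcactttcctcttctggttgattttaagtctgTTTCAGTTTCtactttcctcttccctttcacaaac
Ifi203, chr1:173942493-173942572, minus strand: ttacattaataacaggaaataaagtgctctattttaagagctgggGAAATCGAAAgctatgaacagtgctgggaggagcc
Stat2, chr10:128270248-128270310, plus strand: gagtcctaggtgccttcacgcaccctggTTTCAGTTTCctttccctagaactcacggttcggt
Trim30a, chr7:104465195-104465274, minus strand: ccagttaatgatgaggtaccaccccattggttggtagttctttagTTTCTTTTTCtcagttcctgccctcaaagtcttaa
Ifi203 ranks here through an etoposide reading of 3.72, below the filter, and differed by -0.14 with that reading raised. The motif was found for 3.39% of the 8613 kept genes with a window, for 12.4% of 170 lower genes and for 1.67% of 300 higher genes. In the interferon lists it occurred for 60% (12 of 20) of lower genes and for 24.2% (8 of 33) of those neither lower nor higher.

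These genes were already at different levels in the 2 lines before the drug. Of the 27 lower interferon genes 26 were brighter in mock-treated GFP than in mock-treated p63 cells, by a median of 2.73. Over all kept genes the share was 63.9% and the median 0.14. The 27 were called from a difference that holds the mock GFP reading, so a high reading there is partly built in. In etoposide-treated GFP cells 26 of the 27 were still brighter than in mock-treated p63 cells. In p63 cells 15 of the 27 were below the filter on both arrays, so their differences there rest on readings near background. The other 12 had a median difference of -0.17 in p63 cells and of -1.40 in GFP cells. Of these 12, 1 was lower and 1 was higher by at least 1 in p63 cells. Ifit1 was the higher gene, at 5.39 and 6.55 in p63 cells, and it was the only kept gene called in opposite directions in the 2 lines. Its mock reading in p63 cells was below the filter, and with it raised the difference there was 0.68, which is no longer a call. The starting level in the 2 lines moved with this result, and its part in it was not tested.

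Outside these groups, the lowest value was that of Adamts5, the main aggrecan-degrading protease, at 9.69 in mock-treated and 6.67 in etoposide-treated GFP cells, 8.10-fold lower. Its neighbour on chromosome 16, Adamts1, read 9.17 and 8.04. Lurap1l read 8.44 and, just below the filter, 5.87, at least 5.93-fold lower, and Pcdh18, a protocadherin, read 10.08 and 7.52, or 5.90-fold lower. In the cadherin and protocadherin list 3 of 8 kept genes were lower, and 1 with low readings raised, since Cdh10 and Pcdh9 ended below the filter. Trps1, a repressor with GATA-type zinc fingers, read 9.35 and 7.27, and Rspo2, which amplifies Wnt signals, read 8.23 and 6.18, or 4.23-fold and 4.13-fold lower. Edn1, the vasoconstrictor endothelin, read 7.70 and 5.70, at least 3.57-fold lower, against 6.79 and 6.95 in p63 cells.

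Other secreted and signalling genes differed in both directions, and those named below are called members of lists that held few. Growth factors and receptors gave 2 of 27 kept genes higher and 2 lower, and Wnt signalling 3 and 1 of 27. Semaphorin, slit, ephrin and plexin genes gave 1 and 1 of 31, TGF-beta and BMP signalling 0 and 3 of 34, and matrix proteases and inhibitors 2 and 2 of 18. The list medians ran from -0.01 to 0.16, and 3.52% and 2.12% of all kept genes were higher and lower. Plau and Plat, the plasminogen activators, read 8.21 and 10.17, and 7.93 and 9.39, or 3.88-fold and 2.74-fold higher. Fgf18 was 4.37-fold higher, at 6.22 and 8.35, whereas Fgf7 was 2.63-fold lower than its mock reading of 9.40. Wnt9a, Wnt4 and Wnt5a were 3.02-fold, 2.48-fold and 2.03-fold higher, while Fzd2, a Wnt receptor, was lower at 8.52 and 6.73. Sema3a, a guidance cue, read 10.72 and 8.90, and Efnb1, an ephrin, read 6.77 and 8.32. Id2 and Id3, targets of BMP signals, read 9.33 and 8.26, and 8.40 and 7.15. The call of Id2 was lost under both other scalings, at -0.97 and -0.95.

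Several housekeeping and stress programs held few or no called genes. Collagens gave 0 of 17 in either direction, with a median of 0.07. Ribosome biogenesis gave 0 of 41, although 35 of 41 were below 0 and the median was -0.26. For scale, 4192 of 10324 kept protein-coding genes were above 0. In the brightest 10% of kept genes and the 10% next to it, 373 and 343 of 1070 were above 0. In the unfolded protein and ATF4 response 1 of 28 was higher, in NRF2 and glutathione 1 of 18, and in cholesterol synthesis 1 of 19 was lower, with medians of -0.08, 0.08 and -0.19. With 5.65% of kept genes called in either direction, such counts are near the background.

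**Figure D4:**
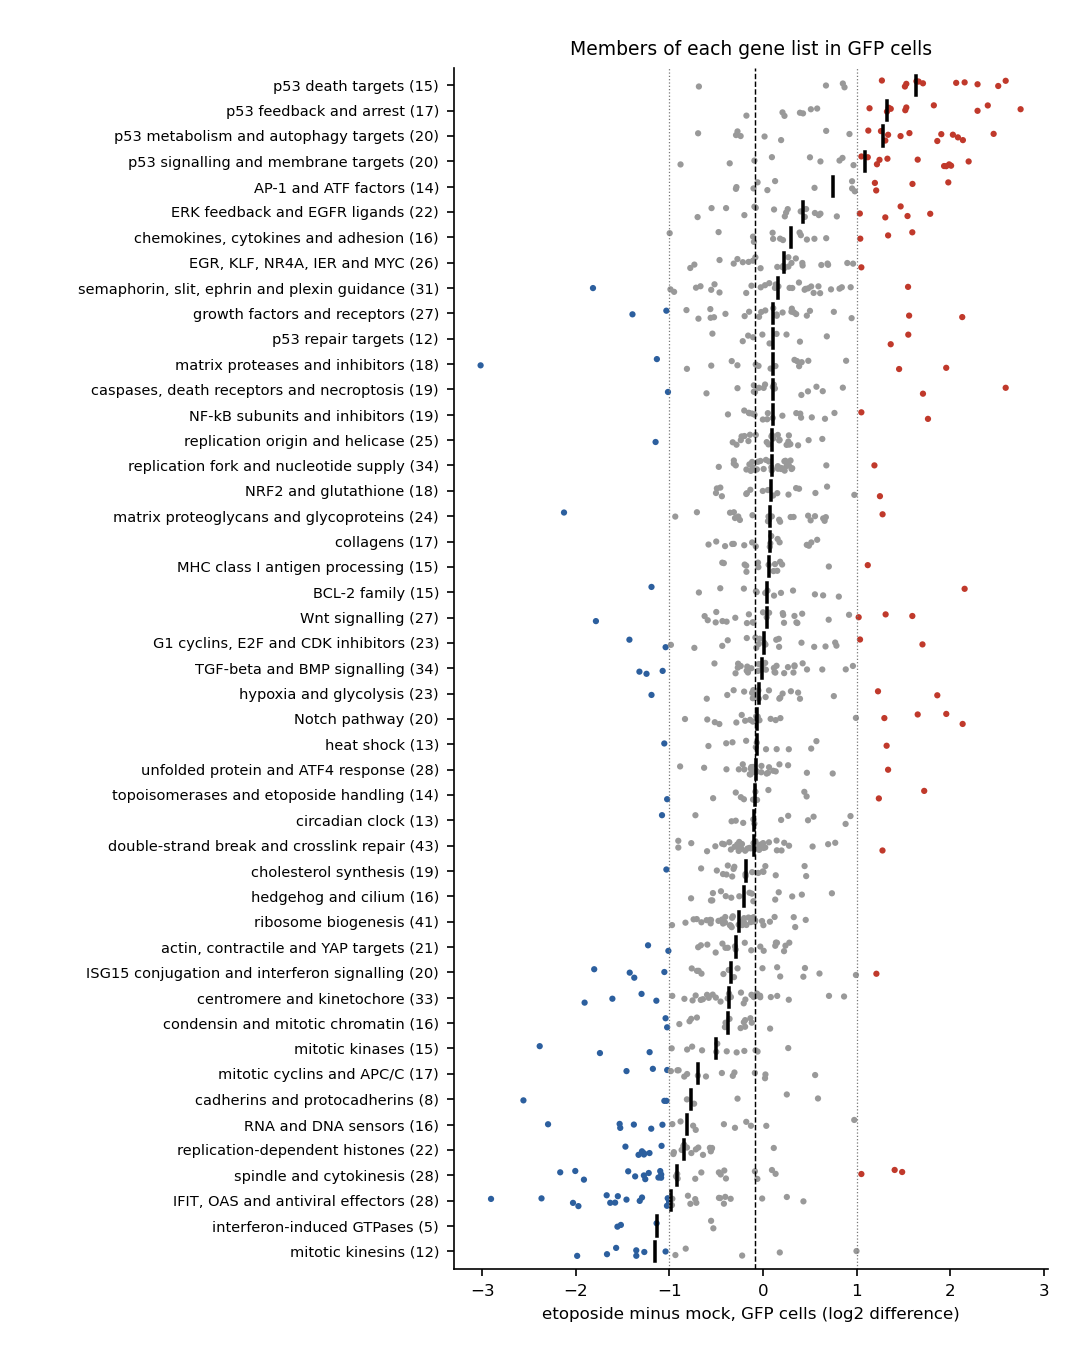
Each point is a kept gene of a list, placed by its etoposide minus mock difference (log2) in GFP cells, with red for at least 1 higher, blue for at least 1 lower and the number of kept members in brackets. Black bars mark list medians, the dashed line is the median of all kept genes (-0.08), and lists run from the highest median, p53 death targets at 1.64, to the lowest, mitotic kinesins at -1.15.

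Gene length went with the difference. The median over kept protein-coding genes was -0.02 for 2537 genes under 10 kb, -0.07 for 10 to 30 kb, -0.13 for 30 to 100 kb, -0.18 for 100 to 300 kb and -0.29 for the 180 genes over 300 kb. Of these 180 genes 8 were lower, 0 were higher and 40 were above 0, while 4192 of all 10324 kept protein-coding genes were above 0. Dim genes had higher differences, with a median of 0.23 in the dimmest 10% of kept genes. Genes with a mean GFP level between 7 and 9 were also taken alone, a range chosen after the data were seen. Their medians were -0.10 under 10 kb and -0.40 over 300 kb. Of the former 395 of 988 were above 0, and of the latter 6 of 83. The p63 line gave medians of 0.09, 0.15, 0.11, 0.03 and -0.10 from the shortest to the longest class, so that the shortest class was not the highest there.

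**Figure D5:**
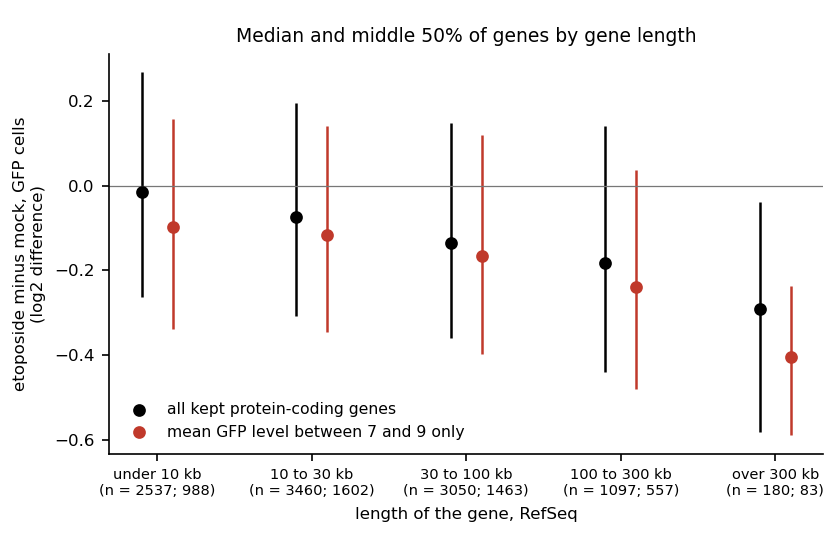
Points are median etoposide minus mock differences (log2) in GFP cells by RefSeq gene length, and bars span the middle 50% of genes, in black for all kept protein-coding genes and in red for genes with a mean GFP level between 7 and 9; the numbers of genes of each stand in brackets. The median is lower in each longer class, down to -0.29 over 300 kb for all genes.

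The 8 long genes that were lower, named because the class held them, were Sema3a, Mecom, Atxn1, Slc24a3, Stard13, Fmn1, Pakap and Pcdh9. Mecom, a zinc-finger transcription factor gene of 558 kb, read 7.37 and 5.74, and still differed by -1.50 with the latter reading raised to the filter. Atxn1, a gene of 415 kb, read 8.23 and 6.91. The longest, Pcdh9 at 879 kb, read 6.42 and 5.37, and did not reach 2-fold with the etoposide reading raised to the filter. The genes called higher had a median length of 20.8 kb and those called lower 25.9 kb, against 23.8 kb for all kept protein-coding genes.

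Some called genes were neighbours in the RefSeq order of the named genes, in which genes without a named probe set of their own are skipped. Higher genes, 3.52% of those kept, formed 11 runs of adjacent genes with 23 members, and lower genes, 2.12%, formed 13 runs with 31. The number of runs that such shares give without any grouping was not computed, so these counts do not show clustering. Among the higher were Ces2e, Ces2f and Ces2g, paralogous carboxylesterases on chromosome 8, and Trp53inp1 with Ccne2 on chromosome 4. Among the lower were Parp14, Dtx3l and Parp9 on chromosome 16, which are interferon-induced, and Trim12a, Trim12c and Trim30a on chromosome 7. Paralogs in such runs may share probes.

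A further run was the Mir17 host gene with its microRNAs on chromosome 14. Mir17hg, the host transcript, read 6.65 after mock treatment and 5.49 after etoposide. Mir18, Mir20a and Mir19b-1 read 6.52 and 5.44, 6.32 and 5.13, and 6.29 and 4.95, and Mir17 and Mir19a were below the filter on both GFP arrays. All etoposide readings lay below the filter, and none of the 4 genes above it in mock-treated cells reached 2-fold with that reading raised. Where these probe sets lie relative to the host transcript was not examined, so the readings are not taken as levels of mature microRNAs. The mature sequences of 5 members are shown because they fall into 3 seed groups, with bases 2 to 8 in capitals, from RefSeq on GRCm38.p6.
mmu-miR-17-5p, chr14:115043684-115043706, plus strand: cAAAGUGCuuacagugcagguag
mmu-miR-20a-5p, chr14:115044183-115044205, plus strand: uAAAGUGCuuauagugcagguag
mmu-miR-18a-5p, chr14:115043867-115043889, plus strand: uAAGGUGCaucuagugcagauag
mmu-miR-19a-3p, chr14:115044048-115044070, plus strand: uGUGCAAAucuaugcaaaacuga
mmu-miR-19b-3p, chr14:115044358-115044380, plus strand: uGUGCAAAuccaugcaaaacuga
The 5p arms of miR-17 and miR-20a share a seed, and so do the 3p arms of miR-19a and miR-19b, while that of miR-18a differs. Among other small RNA genes, 8 of 46 kept snoRNA genes were lower (17.4%, against 2.12% of all kept genes) and 0 were higher, with a median of -0.54. Of the lower ones, Snord53 and Snord42a lost the call with low readings raised, at -0.64 and -0.99. Most snoRNAs lie in introns of other genes, so their probe sets may read host transcripts.

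The p63 line gave the same treatment on different arrays, and the comparisons share no array. Of the 377 genes higher in GFP cells, 374 were above 0 in p63 cells. Their median there was 1.36, against 0.10 over all kept genes. Both lines called 275 genes higher, or 72.9% of the 377 and 40.9% of the 672 (6.28% of kept genes) in p63 cells. Of the 227 lower genes, 205 were below 0 in p63 cells. Both lines called 65 lower, or 28.6% of the 227 and 45.8% of the 142 (1.33%) in p63 cells. The median of the 227 was -0.64 in p63 cells against -1.26 in GFP cells, and without the interferon lists it was -0.69 for 200 genes. The difference between the lines was not tested, for want of replicates.

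Several genes were higher after etoposide in GFP cells from a low start and did not reach the threshold in p63 cells, where they were bright from the start. They belong to the 8 higher genes with the largest GFP minus p63 difference. That ranking by itself favours a low mock reading in GFP cells and a small change in p63 cells. Itga6, the integrin subunit of hemidesmosomes, read 6.96 and 8.79 in GFP cells and 10.86 and 10.50 in the p63 line. Perp, at 8.55 in etoposide-treated GFP cells, read 10.27 in mock-treated p63 cells and was higher by 0.73 there. Nectin1, an adhesion molecule, read 6.03 and 7.78 in GFP cells and 8.32 and 8.54 in the p63 line. Anxa8, an annexin, read 7.72 and 8.94 in GFP cells and 11.62 and 11.39 in the p63 line. In each case the etoposide reading in GFP cells stayed below the mock reading in p63 cells. Phlda3 followed the same order, with 8.63 and 10.15 in GFP cells and 10.12 and 10.32 in the p63 line, except that its etoposide reading in GFP cells slightly passed the mock reading in p63 cells. Inka1, also of the 8, passed it too, with 6.04 and 7.65 in GFP cells and 7.21 and 7.46 in the p63 line. Jag2 and Afap1l2, the rest of the 8, stayed below it, at 7.61 against 7.63 and at 6.92 against 7.57.

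A single array can set a difference. For 22 kept genes mock-treated GFP cells read at least 1 above or below every other array, with the remaining readings no more than 0.5 apart, which by construction makes each of them a call in the GFP comparison. Among them were Jag2, Phlda3, Inka1, H3c15, Ciart and Stard13. For 1 gene the etoposide-treated GFP array stood apart in this way, for 78 the mock-treated p63 array and for 2 the etoposide-treated p63 array. Near the threshold, Tcaf1, Ptprj, Thap6, Thyn1 and Klhdc1 lay just inside it, at 1.00 to 1.01, and Kif18b, Rasd1, Lrrc57, Cdk18 and Tmbim4 just outside, at 1.00 each after rounding. On the other side Ifit2, Ranbp6, Atp1b1, Atxn7l2 and Adgrl2 lay just inside the 2-fold limit, and Zfp566, Terf1, Emx2, Cxcl12 and Kirrel just outside, with Kirrel at 1.99-fold.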

How the data were processed

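Trizol-extracted total RNA was amplified and biotinylated with a NuGEN whole-transcriptome kit, per the labels' protocols, for Affymetrix Mouse Gene ST arrays. The submitters' processing notes name RMA and Affymetrix Expression Console as the source of the log2 values that the authors deposited; the sources used here give neither versions nor the array's genome build. RMA equalises the arrays' intensity distributions, so a shift shared by most genes is largely removed.

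Samples were grouped by title, with 1 array per group, so no test was made, and the small number of arrays limits precision. Of 35512 probe sets, 21789 had 1 symbol in a 2016 annotation, 1621 had several and 12102 were not listed; 21698 matched a RefSeq table (GRCm38.p6), used for names, lengths, types and gene order. Per gene the probe set with the highest mean over 4 arrays was taken. Genes were kept at the 50th percentile or above on any array and called at 2-fold, and list counts were compared with all kept genes.

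The members, the gene lists and the naming rule were chosen with earlier results of these data known. The rule took the p53 family, BAK and topoisomerase II genes, the 15 highest and 15 lowest differences still called with low readings raised, up to 6 called members per list (or 2 of the largest where none was called), the 5 genes nearest the threshold on each side, opposite calls and the 8 largest differences from the p63 line each way. Genes outside it were named after their values were seen. Bax and Trp53 are not analysed here. Alternatives were other filters, thresholds and probe set choices, median centring and cyclic loess (limma 3.58.1, R 4.3.3); tables used Python 3.11.15, pandas 2.3.3 and numpy 2.4.6.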

Additional observations from a re-analysis of the deposited data

Results flagged for a closer look

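Ifit1 differed by -1.46 after etoposide in GFP cells and by 1.15 in p63 cells, the only kept gene whose calls had opposite signs in the 2 lines; its mock reading in p63 cells was below the filter, and with that reading raised the p63 difference was 0.68, short of a call. The interferon-induced GTPases had a median of -1.14 in GFP cells and of 0.81 in p63 cells over 5 kept genes. The p63 median is the value of Mx2, and 3 of the 5 genes, Mx2 among them, were below the filter on both p63 arrays. With low readings raised that median was 0. Neither difference between the lines was tested.

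Signal outside the named genes also differed. Of 5088 kept probe sets that the annotation does not list, 90 were higher and 348 lower by 2-fold, or 1.77% and 6.84%, against 3.52% and 2.12% of named genes. Of 823 kept probe sets with several symbols, 7 were higher and 14 lower. The sources used here do not say what these probe sets measure.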

How the results depend on the processing

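With 1 array per condition no replicate could be left out, and readings near background limit what dim genes show. No paired analysis was possible because no result comes from a test and each group has 1 array. The counts of higher and lower genes were 224 and 140 with a filter at the 75th percentile, 993 and 1014 at 1.5-fold, and 107 and 45 at 3-fold, in place of 377 and 227. They were 406 and 251 with no filter, 366 and 225 with a filter on the GFP arrays only, and 374 and 222 with each gene's median probe set value. The median of the interferon-induced GTPases was -0.53 with no filter and -0.58 with low readings raised, and that of the cadherins and protocadherins was -0.065 with no filter. Aspn, which reads below the filter on both GFP arrays, went from -2.13 to 0 with low readings raised.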
